A study of Mus musculus with 4 samples.

Results

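MHC-II high macrophages are cells from the stromal vascular fraction (SVF) of brown adipose tissue (BAT) in mice that carried C1q transcripts together with abundant MHC class II transcripts and little of the marker genes of the other macrophage states. They were chosen by a gate on summed unique molecular identifiers (UMIs, the count of captured transcript molecules) per 10,000 UMIs of a cell. The sum of C1qa, C1qb and C1qc had to reach 5 and that of H2-Aa, H2-Ab1, H2-Eb1 and Cd74 had to reach 50. Upper limits kept out cells with 10 or more of the Lyve1 set (Lyve1, Cd163, Folr2, Cbr2, F13a1), 20 or more of the Trem2 set (Trem2, Gpnmb, Spp1, Cd9, Mmp12), 20 or more of Il1b, Ccl3 and Ccl4, 5 or more of Ear2 and Lyz1, 30 or more of 5 collagen and stromal genes, and 20 or more of 3 endothelial genes. The gate held 712 of 28887 cells that passed quality control, and 712 of the 7343 cells that passed the C1q, stromal and endothelial limits, which are called C1q-gated cells here. All mice were labelled C57BL6/J, and 4 libraries were made, 1 for each group, from SVF that the study pooled over 3 mice a group. WT mice were labelled 10 weeks old. The db/db mice, which carry a mutation of the leptin receptor and become hyperphagic and obese, were 8 weeks (db/db 8w) or 16 weeks old (db/db 16w). The HFD library came from wild-type mice on a high-fat diet. Its label gives an age of 10 weeks, whereas the study's methods describe 10 weeks of feeding, so the age of these mice could not be settled. Because each group is 1 pooled library, differences between groups have no replicate check and no test was made between them. Where 4 values stand in a row, they follow the order WT, db/db 8w, then db/db 16w, then HFD, and 3 values follow the same order without WT.

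MHC class II molecules are dimers of an alpha and a beta chain that present peptides from engulfed material to CD4+ T cells. Cd74, the invariant chain, escorts the new dimer to the endosome, cathepsins trim it there, and H2-DM exchanges the remaining fragment for a peptide. Transcription of these genes is governed by CIITA, a coactivator that binds no DNA itself and is recruited by RFX, CREB and NF-Y factors bound to a conserved promoter module whose last element, the Y box, is an inverted CCAAT motif. In adipose tissue, macrophages with high MHC class II expression have been described beside perivascular macrophages and the lipid-associated macrophages of obesity.

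The sequences that follow show this promoter element for 2 genes of the gate and for H2-DMb1 and H2-DMb2, 2 of the peptide loading genes in the comparisons that follow. They are the 250 bases before the start of a RefSeq transcript, 5′ to 3′ on the gene's strand, on GRCm38.p6. Capitals mark CTGATTGG and the 5-base CCAAT in either orientation (ATTGG on the printed strand), and CTGATTGG includes an inverted CCAAT. The windows are chr17:34287824-34288073 on the minus strand for H2-Aa, chr17:34305617-34305866 on the plus strand for H2-Eb1, chr17:34152941-34153190 on the plus strand for H2-DMb1 and chr17:34144999-34145248 on the plus strand for H2-DMb2.
H2-Aa: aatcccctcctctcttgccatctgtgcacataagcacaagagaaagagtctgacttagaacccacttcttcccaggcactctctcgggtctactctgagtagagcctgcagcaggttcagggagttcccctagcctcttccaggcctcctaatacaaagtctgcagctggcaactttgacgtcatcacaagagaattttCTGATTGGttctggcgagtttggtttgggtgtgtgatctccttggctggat
H2-Eb1: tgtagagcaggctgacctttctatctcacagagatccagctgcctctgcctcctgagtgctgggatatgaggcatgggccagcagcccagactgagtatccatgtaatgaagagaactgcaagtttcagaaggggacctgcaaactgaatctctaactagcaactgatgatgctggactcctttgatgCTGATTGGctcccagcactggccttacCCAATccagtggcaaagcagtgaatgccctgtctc
H2-DMb1: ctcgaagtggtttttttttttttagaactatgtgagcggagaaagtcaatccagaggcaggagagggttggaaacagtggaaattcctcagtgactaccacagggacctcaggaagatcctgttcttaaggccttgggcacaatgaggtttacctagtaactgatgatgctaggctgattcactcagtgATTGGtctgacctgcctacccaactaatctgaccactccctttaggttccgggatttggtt
H2-DMb2: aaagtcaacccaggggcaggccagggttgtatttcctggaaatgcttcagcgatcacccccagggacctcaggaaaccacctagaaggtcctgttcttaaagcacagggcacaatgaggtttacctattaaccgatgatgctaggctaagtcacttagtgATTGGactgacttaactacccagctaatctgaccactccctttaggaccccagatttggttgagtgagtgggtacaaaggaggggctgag
H2-Aa and H2-Eb1 held the 8-base CTGATTGG, which either strand of 3.83% of the 32851 promoters in the RefSeq table holds. H2-DMb1 and H2-DMb2 held an inverted CCAAT without the longer match, and 33.8% of all promoters hold CCAAT on either strand. H2-DMa, a loading gene called higher in all 3 comparisons, has 2 windows in the table, 1 with no CCAAT and 1 with a single inverted CCAAT farther out, 198 bases before the start. H2-DMb1 (chr17:34153072-34160230) and H2-DMb2 (chr17:34143307-34151555) in the GENCODE annotation, whose gene spans reach upstream of these RefSeq starts and so take in part or all of the printed windows, are neighbouring, near-identical copies, so the division of reads between them is uncertain.

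The 4 libraries differed as wholes. They held 6517 to 18306 barcodes and 5462 to 11648 cells after quality control, with medians of 2733 to 6218.5 UMIs per cell. In HFD 68.5% of the barcodes were over the limit on mitochondrial UMIs, against 1.04% to 35.6% in the others. The study used male mice, but Xist was seen in 37.7% of the db/db 16w cells and in at most 0.421% of the cells of the other libraries, and the Y-linked genes summed to 17.7 CPM (UMIs scaled to a total of 1000000) in db/db 16w against 164 to 188 CPM elsewhere. Pairs of libraries shared 7 to 25 cell barcodes and no member's barcode.

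The members carried macrophage transcripts in every library. A list of 8 macrophage genes, among them Adgre1, Csf1r, Mertk and Cd68, summed to 2562, 2044, 1746 and 3703 CPM in the members of the 4 libraries, with all 8 genes detected in each library. In what follows, CPM are UMIs summed over the cells of a population and scaled by its UMIs of the genes outside the gate. The same list summed to 273 to 1322 CPM in T cells of these libraries and to 198 to 697 CPM in stromal cells. At least 2 UMIs of the list were present in 92.9%, 74.3%, 91.9% and 97.7% of the members, and 1, 14, 4 and 5 members held none.

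Some members carried markers of other immune cells. At least 2 UMIs of 6 dendritic cell genes, of the B cell list or of the T and NK cell genes without Il7r were found in 2, 14, 0 and 26 members. In db/db 8w 11 of the 14 met the B cell criterion, and in HFD 17 of the 26 met the dendritic one. The dendritic genes Batf3 and Kmo and the NK list's Il7r were left out of these criteria after they were seen in members with macrophage markers. With Batf3 and Kmo, 4, 5, 5 and 52 members held at least 2 dendritic UMIs. With Il7r, 0, 10, 2 and 63 members held at least 2 UMIs of the NK list. The 8 dendritic cell genes summed to 538, 76.1, 49.2 and 125 CPM in members. The WT value rests on 67 UMIs, of which 43 were of Ccr7, 42 of them in 1 cell. Xcr1 and Clec9a, which define type 1 dendritic cells, were at 0 in WT and db/db 16w. The T cell list was at 0 in 3 libraries and at 17.9 CPM in HFD, against 1092 to 1320 CPM in T cells. Endothelial and brown adipocyte lists were at 0 in WT members and reached 289 and 88.1 CPM in HFD members, where 78 and 44 members held at least 2 UMIs of them. Of all cells after quality control 7.02%, 15.2%, 5.49% and 14.4% were predicted doublets, a share set by each library's barcode count. Among the members they made up 3.57%, 3.81%, 5.19% and 19.8%. The part of these cells in the results was not tested as such, and counts are also given without the cells that carried markers of other immune types.

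The gated cells were the smallest share of the cells in WT and the largest in HFD. They numbered 28 of 5944 cells in WT, or 0.471% (exact 95% binomial interval 0.313% to 0.680%). The share was 0.901% in db/db 8w (105 of 11648; 0.738% to 1.09%). Older db/db mice (16w) had 2.31% (135 of 5833; 1.94% to 2.73%). It was 8.13% in HFD (444 of 5462; 7.42% to 8.89%). No 2 of these intervals overlap, though they hold counting error alone and no spread over mice. Of the C1q-gated cells the members were 2.59% (1.73% to 3.72%), 4.00% (3.28% to 4.82%), 6.79% (5.72% to 7.99%) and 27.0% (24.8% to 29.2%). Without the cells that carried markers of other immune types the shares of all cells were 0.437%, 0.781%, 2.31% and 7.65%. UMIs of both kinds were also found in cells that should lack them, and free RNA and doublets cannot be told apart there. Among 27, 102, 27 and 41 T cells 1, 14, 3 and 16 reached the C1q limit, or 3.70% (exact interval 0.0937% to 19.0%), 13.7% (7.71% to 22.0%), 11.1% (2.35% to 29.2%) and 39.0% (24.2% to 55.5%), and 3.70%, 4.90%, 3.70% and 24.4% the MHC-II limit, at median depths of 5928, 3236.5, 2401 and 3877 UMIs against 3365.5, 3081, 3401 and 4520.5 UMIs in members. In HFD 4 of the T cells met the whole gate. Among 4328, 7418, 1225 and 1738 stromal cells 7.0%, 29.2%, 4.90% and 13.5% reached the C1q limit and 0.994%, 9.22%, 1.14% and 6.85% the MHC-II limit, highest in db/db 8w and not in HFD.

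**Figure D1:**
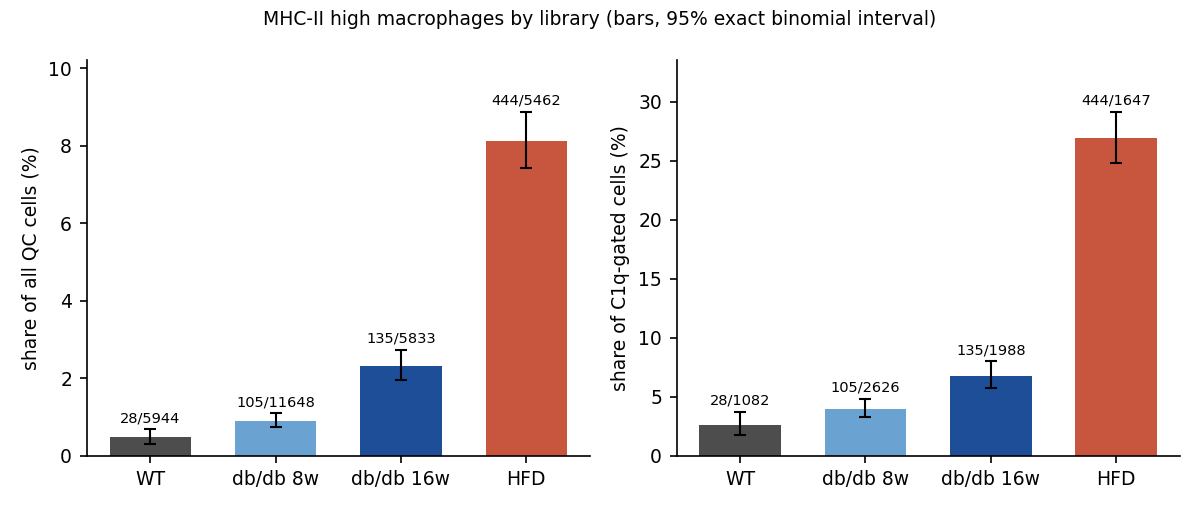
The share of cells in the MHC-II high gate is plotted for each library, as a percentage of all cells after quality control and of C1q-gated cells, with exact 95% binomial intervals. The share of all cells runs from 0.471% in WT to 8.13% in HFD.

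The upper limits of the gate shaped these shares. C1q-gated cells that reached the MHC-II limit, with no other limit set, were 53.4% (578 cells), 48.4% (1271), 15.3% (304) and 78.3% (1290) of the C1q-gated cells. In this wider set WT stood above db/db 16w, the opposite of their order in the gated share. Of the 578 WT cells 84.3% were over the Lyve1 limit, compared with 51.6%, 20.7% and 14.7% in the others. The Trem2 limit was passed by 0.346% of the WT cells and by 14.6%, 27.6% and 38.2% of the others in the same order. Cells over the limit for Il1b, Ccl3 and Ccl4 were 47.2%, 64.6%, 8.88% and 4.42%, and those over the limit for Ear2 and Lyz1 were 10.6%, 19.0%, 11.8% and 20.2%. Lifting the Lyve1 limit alone would add 269, 226, 45 and 141 cells, and lifting the Trem2 limit alone 0, 47, 60 and 364 cells. For the limit on Ear2 and Lyz1 alone the added cells would be 3, 25, 13 and 153. For that on Il1b, Ccl3 and Ccl4 they would be 37, 218, 13 and 37. The members are therefore the MHC-II-bearing macrophages left after cells over the Lyve1, Trem2, Il1b and Ear2 limits were set aside.

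The MHC-II sum that chose the members is given as a description only. In WT it ran from 63.6 to 594 UMIs per 10,000 with a median of 188. In db/db 8w its median was 149 (range 51.5 to 823), while db/db 16w had a median of 135 (51.5 to 607). HFD had the highest median, 293 (51.5 to 822). The nearest cells under the limit, which met every other condition, stood at 49.5, 48.5, 49.5 and 49.1 in the 4 libraries, and 16, 72, 311 and 90 cells failed on the MHC-II limit alone. Within 20% above the limit lay 0, 8, 11 and 5 members. For the C1q limit the lowest members stood at 5.86, 5.19, 5.24 and 5.09 and the nearest cells under it at 4.79, 4.99, 3.83 and 4.98, and 1, 18, 4 and 1 members passed it with a single C1q UMI. H2-Aa, the alpha chain of I-A, was at 6031, 4134, 3802 and 5963 CPM. H2-Ab1, its beta chain, was at 4039, 2996, 2276 and 5002 CPM, and H2-Eb1, the beta chain of I-E, at 4007, 2805, 2013 and 4925 CPM. Cd74 was at 10769, 9034, 8275 and 12103 CPM. All 4 transcripts stood lower in both db/db libraries than in WT and HFD.

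**Figure D2:**
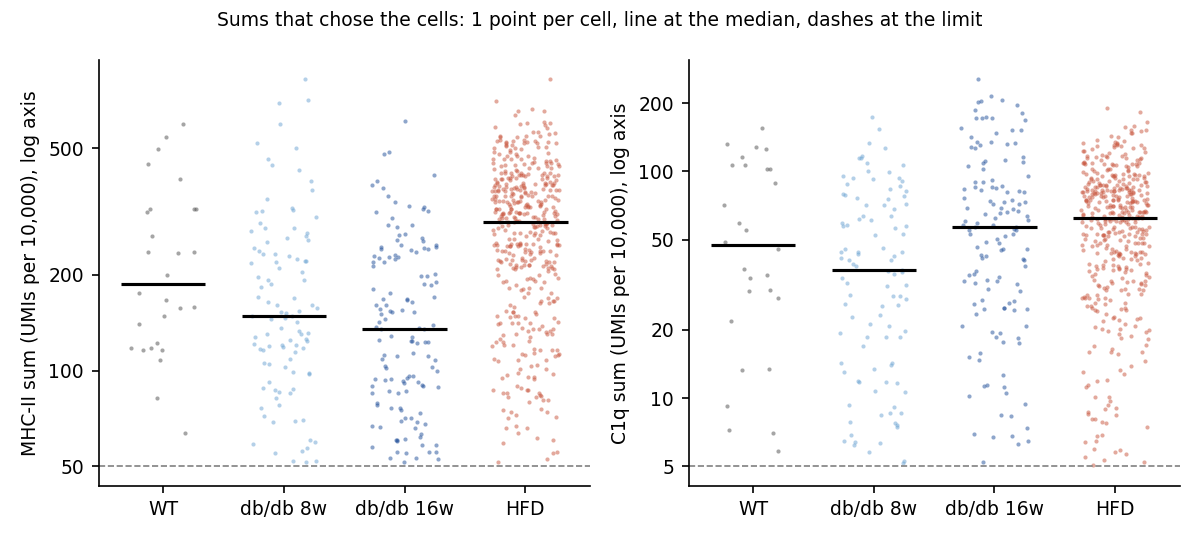
Each point is 1 member cell, with the MHC-II sum and the C1q sum in UMIs per 10,000 on log axes by library, lines at the gate's limits of 50 and 5 and bars at the medians. The MHC-II medians are 188, 149, 135 and 293.

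To describe the gated cells beyond the genes of the gate, their summed UMIs were compared with those of 3 other C1q-gated populations of the same libraries by an edgeR quasi-likelihood test with the library as a block. MHC-II low cells met every limit but the MHC-II one (489 cells). Lyve1-set high cells (3265) and Trem2-set high cells (1895) were over 1 of the Lyve1 and Trem2 limits and under the other. Unlike members and MHC-II low cells, they were not held to the limits on Il1b, Ccl3 and Ccl4 or on Ear2 and Lyz1. Pooled Il1b, Ccl3 and Ccl4, in the gate's unit, stood at 5.98, 6.17, 2.86 and 3.22 in members. Lyve1-set high cells had 43.0, 48.6, 5.33 and 3.54, and Trem2-set high cells of the obese libraries had 26.5, 1.60 and 2.24. The part of these unshared limits in the differences was not tested. The gate's own genes were removed before the totals were taken. The libraries are the units of these tests, so their p-values rest on 3 or 4 libraries of different groups. Genes that follow the gate's genes within a cell will differ by that choice alone, and members had fewer UMIs per cell (medians of 3081 to 4520.5) than Trem2-set high cells (8121 to 10925 in the libraries compared).

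Against MHC-II low macrophages, the gated cells carried more transcripts of the MHC class II loading machinery, of its coactivator and of a set of lectin, receptor and secreted genes, and less of cathepsin L, Arg1 and several cell cycle genes. WT had 16 MHC-II low cells, under the minimum of 20, and was left out of this fit. At least 2 UMIs of the macrophage list were present in 65.3%, 92.3% and 61.1% of the MHC-II low cells. In the members the shares were 74.3%, 91.9% and 97.7%. Of 5664 genes tested 130 were higher in the members (2.3%) and 61 lower (1.08%) at an adjusted p under 0.05, and 874 had an unadjusted p under 0.05.

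H2-DMb1 stood at 224, 206 and 376 CPM in the members and at 10.7, 8.00 and 33.0 CPM in the MHC-II low cells. The groups did not overlap, and the log2 fold change was 4.18 ± 0.25 (SE, n = 3 libraries; edgeR adjusted p = 2.57e-10). H2-DMa, the other chain of H2-DM, stood at 335, 526 and 407 CPM against 50.7, 130 and 52.8 CPM. Its log2 fold change was 2.47 ± 0.19 (edgeR adjusted p = 1.76e-08), with every member sum above every MHC-II low sum. Both tested genes of the 6-gene peptide loading list were thus higher, and their median log2 fold change of 3.33 compares with -0.01 over all genes tested. H2-DMb2, H2-Oa, H2-Ob and H2-Eb2 were too low to be tested here.

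Ciita, the class II coactivator, stood at 43.2, 20.8 and 174 CPM in the members and at 2.67, 2.86 and 33.0 CPM in the MHC-II low cells. The db/db 16w members were thus below the HFD MHC-II low cells, while within each library the members were higher. The log2 fold change was 2.68 ± 0.31 (edgeR adjusted p = 1.31e-05). The db/db 8w value rests on 1 UMI in the MHC-II low cells, where the ratio was 16.2 with a counting interval of 2.60 to 670. Of 5 tested members of the class II transcription list Ciita alone was called (median log2 fold change -0.08). Rfxap, Nfya, Nfyc and Creb1, which encode subunits of the DNA-bound factors, did not pass.

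Mgl2, a C-type lectin of alternatively activated macrophages, was detected with 13, 12 and 318 UMIs in the members and with 0, 0 and 3 UMIs in the MHC-II low cells. Against a floor of 3 UMIs per library this is at least 3.34-fold higher in db/db 8w and at least 13.3-fold higher in db/db 16w, with a ratio of 22.1 in HFD (counting interval 7.50 to 108; edgeR adjusted p = 9.18e-07 over the 3 libraries). Retnla, which encodes the secreted protein RELM-alpha, stood at 1263, 1047 and 1138 CPM against 662, 29.1 and 66.0 CPM, so that db/db 8w showed the smallest gap. Its log2 fold change was 3.24 ± 0.46 (edgeR adjusted p = 0.000147). Ccr2, the receptor by which monocytes leave the bone marrow for tissue, stood at 43.2, 170 and 322 CPM against 37.3, 52.5 and 70.4 CPM, with a log2 fold change of 1.70 ± 0.25 (edgeR adjusted p = 0.000208). It too was nearly level in db/db 8w. Tmem176a (log2 fold change 1.98), Tmem176b (1.74), Fcgr4, an activating IgG receptor (1.67), and Pou2f2, an octamer-binding transcription factor (1.63), completed the 10 largest increases.

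The largest decreases were smaller in size. Ctla2a, an inhibitor of cathepsin-like proteases, was found with 0, 2 and 90 UMIs in members against 17, 52 and 63 UMIs (edgeR adjusted p = 0.000674). Arg1, arginase 1, stood at 63.8, 7.57 and 5.05 CPM against 195, 56.5 and 24.2 CPM (log2 fold change -1.97 ± 0.29, edgeR adjusted p = 0.000208). Ctsl, cathepsin L, stood at 1125, 829 and 808 CPM against 2564, 1989 and 1586 CPM, with no overlap between the groups (-1.11 ± 0.10, edgeR adjusted p = 2.85e-07). Rasgrp3, with 9, 0 and 51 UMIs against 18, 17 and 46, Cdca3 (-1.40), Ablim1 (-1.39), the chemokine Ccl8 (-1.37), Ly6a (-1.27), Thbs1 (-1.14) and 1110008P14Rik (-1.14) were the others. For Ablim1 and Ly6a the db/db 16w sums differed by less than counting error (ratios 1.21, interval 0.119 to 59.4, and 1.01, interval 0.259 to 5.68).

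Other antigen presentation lists were called in part. In antigen processing 4 of 8 tested genes were higher and none was lower, Ctss (log2 fold change 0.52), Cst3 (0.39), Ctsh (0.97) and March1 (0.99), and the list's median was 0.22. Ctss, the cathepsin that trims the invariant chain, stood at 1670, 2278 and 1629 CPM in members against 1280, 1559 and 1133 CPM. In co-stimulation 2 of 4 tested genes were higher, Cd83 (1.04) and Tnfsf9 (1.53), whereas Cd86 (0.82, edgeR adjusted p = 0.0737) did not pass. In MHC class I presentation 2 of 10 tested genes were higher, H2-D1 (0.44) and H2-T23 (1.02), while B2m was at 0.15 (edgeR adjusted p = 0.619). H2-D1 and H2-K1 are related class I genes, and the division of reads between them was not tested. In the interferon response list 2 of 6 tested genes were higher, both of them chemokines that draw T cells, Cxcl9 (1.49) and Cxcl10 (1.76). Cxcl9 was unevenly spread, with 62 UMIs in 2 of the db/db 16w members and 130 UMIs in 37 HFD members.

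Among the chemokines, 4 of 10 tested genes were higher, the neutrophil attractants Cxcl1 (0.87) and Cxcl2 (1.04) with Cxcl16 (1.01) and Ccl6 (0.92), and Ccl8 was lower. Cxcl2 was abundant and differed widely between libraries, at 18301, 1108 and 4430 CPM in members against 9950, 520 and 2121 CPM, close to 2-fold in each library. In the Fc and complement receptor list 3 of 10 tested genes were higher (Fcgr2b, Fcgr3, Fcgr4) and none was lower. In the lipid and lysosome list 6 of 17 tested genes were lower (Fabp5, Plin2, Cd36, Ctsd, Ctsl, Lgals3) and Apoe was higher. Apoe, the lipoprotein carrier of macrophages, stood at 8613, 7415 and 8973 CPM against 3425, 3324 and 2997 CPM (log2 fold change 1.39 ± 0.08, edgeR adjusted p = 9.81e-11). In the cell cycle list 3 of 12 tested genes were lower (Stmn1, Cdk1, Birc5). Receptor genes were higher in 4 of 10 tested, among them Ccr2, Csf1r and Il10ra. In the inflammatory list 3 of 8 tested genes were higher (Nlrp3, Nfkbia, Nfkbiz). None of 4 tested TGF-beta genes passed, and of the immediate-early and heat-shock genes 2 of 12 were higher (Atf3, Junb).

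Markers of other cells also moved in this comparison. Batf3, listed among the dendritic cell genes, was the 1 gene of that list tested and was higher in members (1.52), at 43.2, 43.6 and 62.9 CPM against 18.7, 14.3 and 22.0 CPM. The T cell list, of which no gene was tested, stood at 0, 0 and 17.9 CPM in members against 85.4, 4.57 and 74.8 CPM, and the endothelial list was at 16.5, 54.9 and 289 CPM against 40.0, 19.4 and 849 CPM. The neutrophil list pooled to 0.220, 0.314 and 0.217 UMIs per 10,000 in members against 9.88, 0.272 and 0.175. In HFD 9.91% of members and 21.1% of MHC-II low cells held at least 2 brown adipocyte UMIs. The neutrophil, endothelial and brown adipocyte lists were not used to remove cells with markers of other immune types. Without cells that carried markers of other immune types 208 genes were called. Of the 20 named genes 19 could then be fitted, and all 19 kept their call. In other fits some named genes lost it, Thbs1 without db/db 8w, 1110008P14Rik without db/db 16w, and Cdca3, Ly6a and Pou2f2 without HFD. Ablim1 and Thbs1 lost it among cells of at least 2000 UMIs, Rasgrp3 and Thbs1 with a C1q sum of at least 20, and Thbs1 under DESeq2, which gave an adjusted p for 9 of the 20. Without a library block no gene was called, 135 having an unadjusted p under 0.05. The count was 316 without db/db 8w, 97 without HFD and 280 without db/db 16w, the library with Xist.

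**Figure D3:**
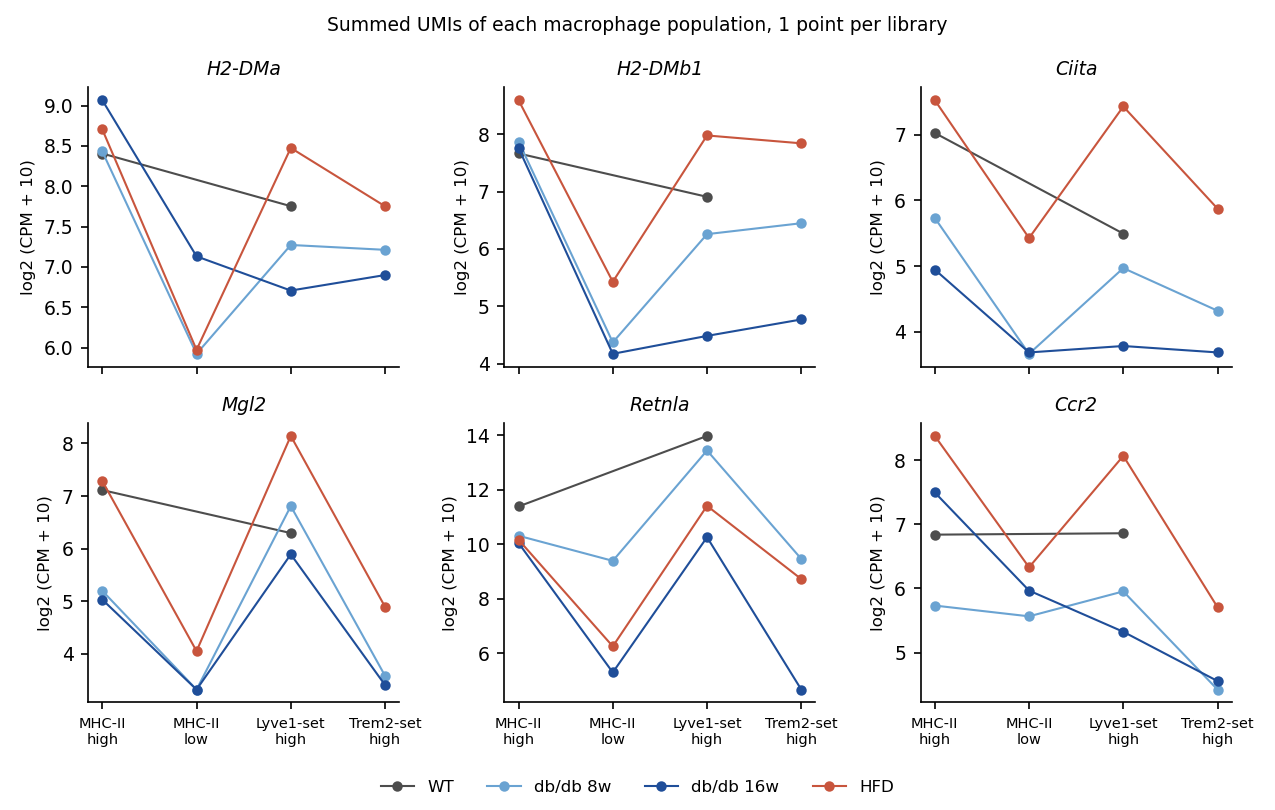
The summed level of 6 genes, as log2 of CPM plus 10, is plotted for the members and the 3 other macrophage populations, with 1 point per library joined within the library and each panel on its own axis. Populations of fewer than 20 cells are left out, and in each panel the members lie above the MHC-II low cells of the same library.

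Against Lyve1-set high macrophages, which carry the perivascular marker genes of the gate's Lyve1 limit, the members had less of the other perivascular genes listed. All 4 libraries entered this fit. Of 8416 genes tested 99 were higher (1.18%) and 187 lower (2.22%), and 1291 had an unadjusted p under 0.05. Perivascular macrophage genes outside the gate were lower in 13 of 13 tested, with a median log2 fold change of -2.75 beside 0.01 over all genes. Vsig4, Cd209b, Cd209f and Cd209g had 0 UMIs in the members of at least 1 library, so their fitted folds, which enter this median, depend on the prior count. In the other comparisons the list was mixed. Against MHC-II low cells 2 of 8 tested genes were higher and 1 was lower. Against Trem2-set high cells 3 of 9 were higher and 1 was lower.

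Vsig4, a complement receptor of resident macrophages, had 0, 0, 0 and 1 UMIs in the members and 173, 408, 245 and 25 UMIs in the Lyve1-set high cells. Against the floor of 3 UMIs it was at least 1.11-, 8.24- and 23.2-fold lower in the first 3, and 66.6-fold lower in HFD (counting interval 10.9 to 2733; edgeR adjusted p = 5.26e-06 over the 4 libraries). Cd209b, a C-type lectin, had 0, 2, 0 and 1 UMIs against 1627, 1531, 186 and 18 (edgeR adjusted p = 1.23e-06). Its relatives Cd209f, Cd209d and Cd209g followed, with 0 to 7 UMIs in every member sum.

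Fcna, ficolin A, stood at 96.4, 20.6, 18.9 and 2.75 CPM in members against 1367, 775, 284 and 115 CPM (log2 fold change -4.52 ± 0.28, edgeR adjusted p = 5.89e-07). Mrc1, the mannose receptor CD206, was detected in both populations at 361, 407, 278 and 764 CPM against 1130, 1486, 1409 and 1524 CPM (-1.65 ± 0.20, edgeR adjusted p = 0.000402). Its ranges did not overlap. Chemokines were lower as well, in 6 of 11 tested genes. The members were limited in Il1b, Ccl3 and Ccl4 and the Lyve1-set high cells were not. The part of this limit in the chemokine decreases was not tested. Ccl8 stood at 530, 80.2, 9.47 and 51.9 CPM against 1990, 2542, 1075 and 312 CPM (-3.65 ± 0.50, edgeR adjusted p = 0.00103), and Ccl7 (-2.69), Ccl12 (-2.38), Ccl2 (-2.14), Ccl24 (-2.02) and Pf4 (-1.51) were the others. Ednrb (-3.30), Ltc4s (-3.24) and the complement gene C4b (-3.53) were also among the 10 largest decreases.

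Higher in the members were Gngt2, a G protein gamma subunit (log2 fold change 2.80 ± 0.44, edgeR adjusted p = 0.00242), Napsa, an aspartic protease (2.75), Ramp1, part of the CGRP receptor (2.34), Il7r (2.19), Cd300c2 (2.15), H2-DMb2 (2.08), Fabp5 (2.03), Cytip (1.88), Cd52 (1.77) and H2-DMb1 (1.70). Napsa stood at 48.2, 49.4, 83.3 and 24.8 CPM in members against 6.52, 6.86, 11.8 and 7.33 CPM. Cytip, which binds the integrin regulator cytohesin, stood at 177, 119, 60.6 and 208 CPM against 34.0, 37.9, 12.9 and 77.0 CPM. For Ramp1 and Il7r the WT members had 2 and 1 UMIs, and their ratios of 2.35 (counting interval 0.276 to 9.02) and 4.31 (0.101 to 29.1) include no difference.

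The loading genes were again higher, in 3 of 3 tested, although the Lyve1-set high cells are themselves rich in MHC class II in some libraries. H2-DMb1 stood at 193, 224, 206 and 376 CPM against 110, 66.5, 12.4 and 242 CPM, so the HFD Lyve1-set high cells lay above 3 of the 4 member sums. Its log2 fold change of 1.70 ± 0.40 passed narrowly (edgeR adjusted p = 0.0313), and so did that of H2-DMa (1.2 ± 0.30, edgeR adjusted p = 0.0454). Ciita did not pass (0.93 ± 0.30, edgeR adjusted p = 0.123) although it was higher in 4 of 4 libraries, and none of the 6 tested class II transcription genes did. None of 8 antigen processing, 7 co-stimulation, 10 MHC class I and 12 immediate-early and heat-shock genes passed, and of 15 interferon response genes Gbp7 was lower. Retnla, higher than in MHC-II low cells, was lower than in Lyve1-set high cells (-1.77 ± 0.38, edgeR adjusted p = 0.0197). In the lipid and lysosome list Fabp5, Fabp4 and Lpl were higher and Abca1 and Grn lower, 5 of 17 tested.

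Of 3 tested dendritic cell genes Cd209a was lower in members (-2.08) and none was called higher. The median log2 fold change of the 3 was 0.49. The dendritic list as a whole was at 538, 76.1, 49.2 and 125 CPM in members against 121, 127, 43.0 and 109 CPM. Most of the WT member value came from Ccr7 UMIs of 1 cell. The B cell list was at 88.3, 121, 15.1 and 22.0 CPM against 17.2, 8.35, 9.13 and 33.0 CPM, and the 1 B cell gene tested did not pass. Without cells that carried markers of other immune types 272 genes were called and all 20 named genes kept their call. Il7r, 1 of them, had been left out of the criteria for removal, so this fit does not check it. The count of 286 fell to 65 without db/db 8w and to 130 without db/db 16w. Cd52, Fabp5, Gngt2, H2-DMb1, H2-DMb2 and Il7r were not called without db/db 8w, and H2-DMb1 was also lost without WT, without db/db 16w, among cells of at least 2000 UMIs and under DESeq2.

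Against Trem2-set high macrophages, which carry the genes of lipid-associated macrophages in the gate's Trem2 limit, the members had less of the lysosomal and lipid genes and more of Ccr2, Mgl2 and immediate-early genes. WT had 3 Trem2-set high cells and was left out. Of 9828 genes tested 580 were higher (5.9%) and 545 lower (5.55%), and 2707 had an unadjusted p under 0.05. Lipid and lysosome genes outside the gate were lower in 14 of 17 tested, with a median log2 fold change of -0.995 beside 0.02 over all genes, and 1 was higher.

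Ctsk, cathepsin K, stood at 86.4, 119 and 52.8 CPM in the members and at 911, 1121 and 493 CPM in the Trem2-set high cells. The groups lay far apart (log2 fold change -3.34 ± 0.14, edgeR adjusted p = 9.41e-09). Ctsl stood at 1125, 829 and 808 CPM against 6916, 5569 and 4386 CPM (-2.66 ± 0.11, edgeR adjusted p = 9.41e-09). Itgax, which encodes CD11c, stood at 35.0, 18.9 and 44.5 CPM against 142, 63.7 and 280 CPM (-2.39 ± 0.20, edgeR adjusted p = 1.21e-05). Mfge8, a bridge between apoptotic cells and phagocytes (-2.49), Wfs1 (-2.65), Rnf128 (-2.45), Syngr1 (-2.47), Hspb7 (-2.98), Zranb3 (2, 0 and 36 UMIs against 195, 245 and 681) and coagulation factor F7 (-1.96) were the other large decreases. Within the list, Fabp5 (-1.73), Ctsd (-1.54), Lgals3 (-1.49), Lipa (-1.21), Plin2 (-1.12) and Cd63 (-1.09) were lower. Apoe was higher (0.52 ± 0.15, edgeR adjusted p = 0.0377), at 8613, 7415 and 8973 CPM against 7979, 3177 and 6637 CPM.

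Ccr2 stood at 43.2, 170 and 322 CPM in members against 11.5, 13.5 and 42.2 CPM, with a log2 fold change of 2.93 ± 0.23 (edgeR adjusted p = 9.81e-06). Each member sum exceeded every Trem2-set high sum. Mgl2 stood at 26.7, 22.7 and 146 CPM against 1.99, 0.621 and 19.8 CPM (3.22 ± 0.30, edgeR adjusted p = 3.07e-05), also without overlap. Tmem176a (2.63), Tmem176b (2.43), Lifr, the leukaemia inhibitory factor receptor (2.43), Pou2f2 (2.41), Retnla (2.38), the globin gene Hba-a1 (2.20), H2-DMb2 (2.13) and Ciita (2.0) made up the 10 largest increases. Hba-a1, a transcript of red cells, stood at 169, 1570 and 0.918 CPM in members against 15.7, 491 and 0.482 CPM.

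All 3 tested loading genes were higher. H2-DMb2 stood at 113, 41.7 and 3.67 CPM against 30.9, 5.71 and 0.964 CPM, and the HFD values rest on 8 and 6 UMIs. In antigen processing March1 was higher and Ctsz, Ifi30 and Lgmn lower, 4 of 8 tested. Cd86 (1.52 ± 0.21, edgeR adjusted p = 0.000557) and Icosl (2.17), both ligands of T cell co-stimulatory receptors, were higher among 6 tested. Receptor genes were higher in 5 of 11 tested, among them Cx3cr1 (2.14), Il10ra (1.04) and Ifngr1 (0.68) beside Ccr2. Cxcl9, Cxcl10 and Iigp1 were higher among 15 interferon response genes. Immediate-early and heat-shock genes were higher in 8 of 12 tested, among them Hspa1a (1.67), Hspa1b (1.61), Jun (0.84) and Fos (0.54), and the list's median was 0.62. In TGF-beta signalling Tgfbi (1.37), Skil (0.91) and Smad7 (0.85) were higher among 5 tested.

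Markers of other cells moved with this comparison too. Endothelial genes were higher in 3 of 4 tested (Pecam1, Flt1, Kdr), the whole list being at 16.5, 54.9 and 289 CPM in members against 13.7, 22.2 and 114 CPM. The monocyte genes Ccr2 and Plac8 were higher, 2 of 3 tested, and the list was at 78.1, 218 and 346 CPM against 19.2, 20.9 and 51.9 CPM. Batf3 and the B cell gene Cd79b were higher and Il7r and S100a8 lower. The part of free RNA or of other cells in these differences was not tested beyond the following fits. Without cells that carried markers of other immune types 903 genes were called and all 20 named genes kept their call. Among cells of at least 2000 UMIs 938 were called, and Retnla was not. Under DESeq2 Retnla and F7 were not called. The count was 510 without HFD, and without the library block it was 0, with 712 genes at an unadjusted p under 0.05.

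**Figure D4:**
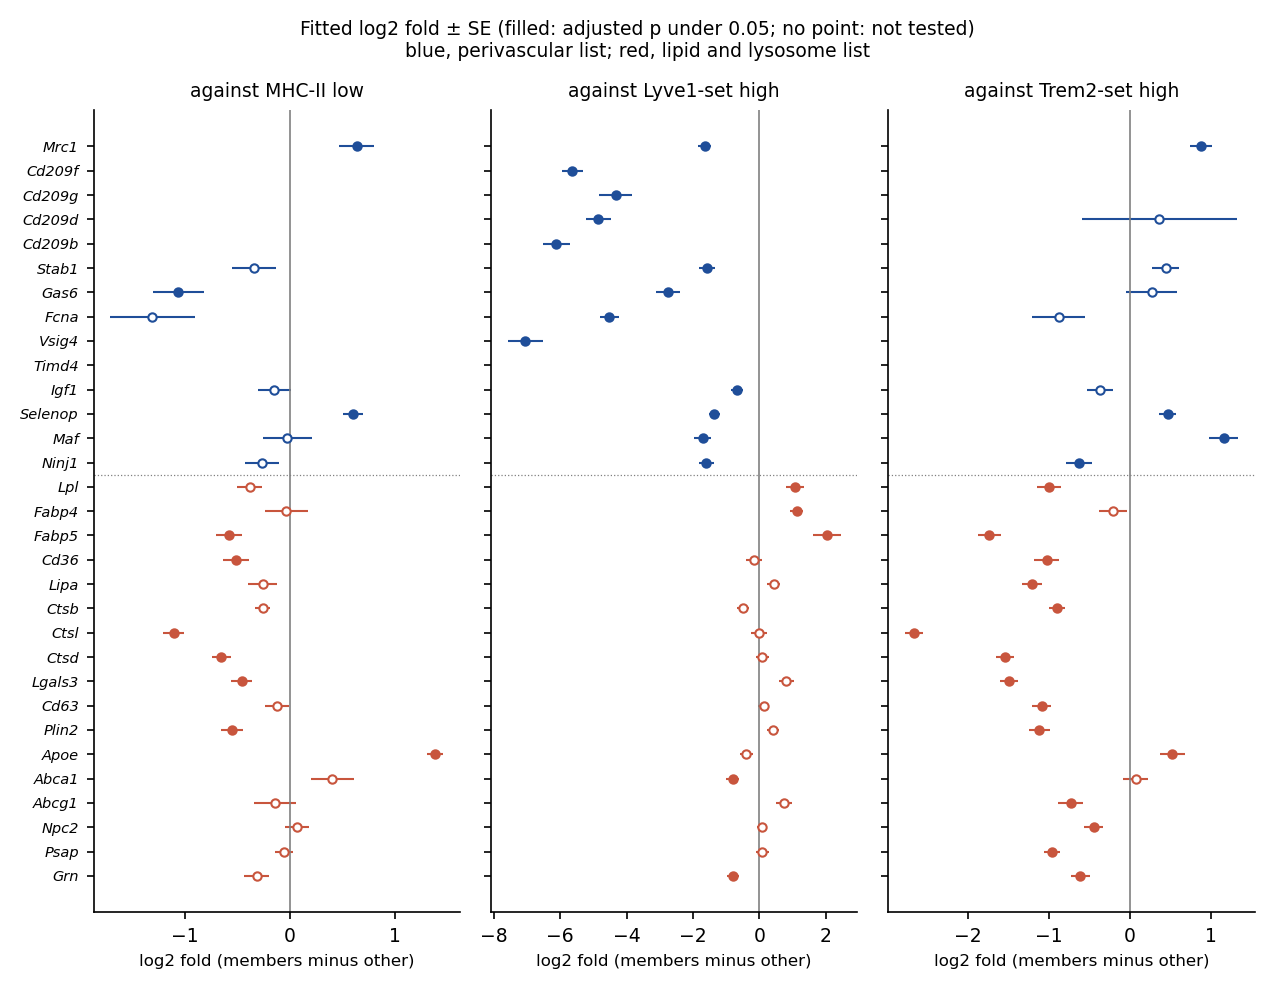
Fitted log2 fold changes with their SE are plotted for each tested gene of the perivascular (blue) and lipid and lysosome (red) lists in the 3 comparisons, filled where called, with a separate horizontal range in each panel. All 13 tested perivascular genes lie left of 0 against Lyve1-set high cells, and 14 of 17 lipid and lysosome genes are called lower against Trem2-set high cells.

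Between libraries, the members' summed levels were set beside those of WT, where 28 cells gave few UMIs. A gene was counted when its log2 ratio, on CPM plus 10, was at least 1 in size. Of 15499 genes seen in members, the share past this ratio was 9% higher and 8% lower for db/db 8w, 9.14% and 10.3% for db/db 16w, and 10.6% and 5.06% for HFD. In all 3 obese libraries together 3.88% were higher and 3.11% lower. The median log2 ratio in HFD was 0.13, and relative to it the HFD calls were 1254 higher and 1000 lower in place of 1644 and 785. For all 3 obese libraries together the counts were then 526 higher and 565 lower in place of 602 and 482, so that the lower calls became the more numerous. These are ratios of single libraries with no test.

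Genes higher in all 3 obese libraries included Rgs1, a regulator of chemokine receptor signalling, at 201 CPM in WT members and 1246, 1233 and 709 CPM in the 3 obese libraries. The WT value rests on 25 UMIs in 9 cells. Creg1, a glycoprotein of the endosome and lysosome, was at 96.4 CPM (12 UMIs) in WT and at 352, 309 and 402 CPM in the others. Alcam, the CD6 ligand, was at 8.03 CPM in WT, which is 1 UMI, and at 173, 117 and 181 CPM in the others. The log2 ratios of Alcam had counting intervals of 1.91 to 9.75, 1.34 to 9.20 and 2.01 to 9.80. Hilpda, a lipid droplet protein, was at 40.2 CPM in WT and at 516, 225 and 156 CPM. Adssl1, Srp14, Mrpl23, Acp5, Slc48a1 and Ramp1, the others of the 10 named, had 1 to 5 UMIs in WT. The Trem2-set sum of the members was also lowest in WT, as given below, and its part in these ratios was not tested.

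Genes lower in all 3 obese libraries were led by heat-shock genes and by genes of single WT cells. Hspa1a, an inducible HSP70, was at 10432 CPM in WT members and at 1045, 968 and 121 CPM in the others. Hspa1b, its near-identical neighbour, was at 11010, 985, 873 and 53.7 CPM, and Dnajb1, their co-chaperone, at 3116, 144, 77.6 and 68.9 CPM. The cells outside the C1q limit stood in the same order, with Hspa1a at 2449, 1662, 1330 and 234 CPM. Hsph1 and Phlda1 were also among the named genes, at 1775 and 1357 CPM in WT members and at most 160 and 121 CPM elsewhere. Ifi213 had 16 UMIs in WT and 0 to 3 in the others.

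Ccl22, Fscn1 and Ccr7, genes of mature dendritic cells, stood at 723, 225 and 345 CPM in WT members. Of their UMIs 90 of 90, 28 of 28 and 42 of 43 lay in 1 cell. Without the cells that carried markers of other immune types all 3 genes had 0 UMIs in WT. Rsad2, an interferon-induced gene, was at 426 CPM in WT and at 10.3, 5.68 and 35.3 CPM in the others, with 64.2% of the WT UMIs in 1 cell. The first 3 values therefore describe a single cell of the 28, whereas Rsad2 was seen in 5 WT cells and kept 46 of its 53 UMIs without the cells that carried markers of other immune types.

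**Figure D5:**
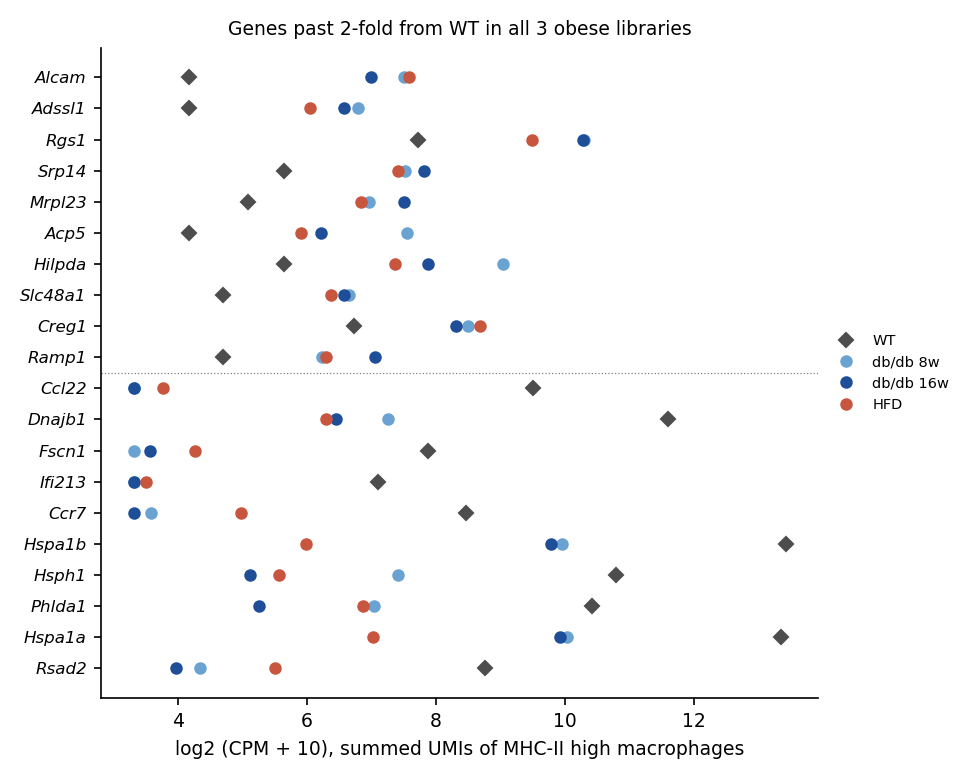
For the 20 named genes the level in members is plotted as log2 of CPM plus 10, with 1 point per library and no error bars, genes higher than WT above the dotted line and lower ones under it. The WT diamonds stand apart from all 3 obese libraries in each row, as the choice of these genes requires.

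The lists differed in how they stood across libraries. In the lipid and lysosome list 8 of 17 genes were past the 2-fold ratio over WT in the first obese library, 5 in the next and 7 in HFD, with median log2 ratios of 0.75, 0.20 and 0.68. Over all genes 9%, 9.14% and 10.6% were past it in this direction and the medians were 0, 0 and 0.13. Lpl, lipoprotein lipase, was at 289 CPM in WT members and at 3077, 1140 and 2622 CPM in the others. Lgals3, galectin-3, was at 482 CPM in WT and at 4364, 3520 and 3057 CPM. Fabp4 was at 233, 2612, 1551 and 3740 CPM, and the cells outside the C1q limit held 242, 2202, 14992 and 17968 CPM of it, also lowest in WT. In those cells Lpl was at 1438, 2202, 2982 and 2246 CPM and Lgals3 at 190, 720, 5284 and 894 CPM. The pooled Trem2-set sum of the members, in the gate's unit, was 1.40 in WT and 9.12, 8.56 and 9.27 in the obese libraries. Within 20% under the Trem2 limit lay 0, 11, 14 and 52 members. The WT members were thus farther from the Trem2 limit, and the part of this gap in the lipid and lysosome ratios was not tested.

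MHC class I presentation genes were past the ratio below WT in 7 of 11 in each obese library, with medians of -1.68, -1.28 and -1.09, where 8%, 10.3% and 5.06% of all genes were past it. B2m, the light chain of class I, was at 2730 CPM in WT members and at 839, 1115 and 1235 CPM, and at 1710, 832, 1000 and 1351 CPM in the cells outside the C1q limit. Interferon response genes were past the ratio below WT in 10, 10 and 4 of 17. Irf1 was at 522, 228, 66.3 and 107 CPM. Immediate-early and heat-shock genes were past it below WT in 8, 11 and 8 of 12.

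The class II pathway followed no common order across the obese libraries. Ciita was at 120, 43.2, 20.8 and 174 CPM, the WT value from 15 UMIs. The exact Poisson intervals of WT (67.4 to 199) and HFD (157 to 193) overlapped, and those of both db/db libraries (26.7 to 66.0 and 10.4 to 37.3) lay below WT. H2-DMa was at 329, 335, 526 and 407 CPM and H2-DMb1 at 193, 224, 206 and 376 CPM. H2-DMb2 departed from its neighbour, at 104, 113, 41.7 and 3.67 CPM. Its HFD value, 8 UMIs with an interval of 1.59 to 7.24 CPM, lay below the intervals of the other libraries, and in HFD it was also lowest among Lyve1-set high (2.44 CPM) and Trem2-set high cells (0.964 CPM). Mgl2 was at 128 and 146 CPM in WT and HFD members and at 26.7 and 22.7 CPM in the db/db libraries. Ccr2 was at 104, 43.2, 170 and 322 CPM.

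Several chemokine and cytokine transcripts were highest in db/db 8w members. Cxcl2 was at 1558, 18301, 1108 and 4430 CPM, and Cxcl1 at 281, 3994, 161 and 596 CPM. The cells outside the C1q limit held 252, 1755, 227 and 367 CPM of Cxcl2. Tnf was at 434, 810, 30.3 and 108 CPM, and Il10 was at 345 CPM in db/db 8w with 0 UMIs in WT, at least 14.3-fold higher. Because Il1b, Ccl3 and Ccl4 were limited by the gate, cells richest in them are not members. Inflammatory genes were past the ratio above WT in 5, 1 and 3 of 12, and below it in 1, 7 and 4. The 1 of 12 above in db/db 16w and the 1 of 12 below in db/db 8w are near the shares of all genes (9.14% and 8%).

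Cell cycle transcripts were compared at equal depth, since deeper cells show more of them. With every cell thinned to 1000 UMIs, 2 or more UMIs from the list of 14 cell cycle genes occurred in 10.7% (exact interval 2.27% to 28.2%), 10.5% (5.16% to 18.5%), 21.5% (14.8% to 29.6%) and 10.4% (7.69% to 13.6%) of the members. Thinning left out 0, 10, 5 and 0 shallower members. The unthinned shares were 39.3%, 41.9%, 48.1% and 35.6%. T cells thinned in the same way gave 22.2%, 27.5%, 31.8% and 24.4%, above the members in each library, and the part of free RNA in these shares was not tested. The db/db 16w interval lay above that of HFD and overlapped those of WT and db/db 8w.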

How the data were processed

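Gene expression was measured by droplet single-cell RNA sequencing of the stromal vascular fraction of BAT, in 4 libraries. Per the file headers the deposited matrices hold raw UMI counts that the authors made with Cell Ranger on mm10 (version 6.0.0 in the headers and 7.1.0 in the submitters' processing notes), with 32285 genes, filtered to cell barcodes and not normalised. The label of the extraction describes a kit for bulk RNA, whereas the study describes 10x Genomics Chromium libraries of transcript 3′ ends.

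From these counts, cells with 251 to 5999 genes, 501 to 29999 UMIs and under 15% mitochondrial UMIs were kept. The gate was then applied to UMIs per 10,000 of a cell. Doublets were predicted with Scrublet in scanpy 1.11.5 at an expected 0.8% per 1000 barcodes and were kept in the main results. The members, the comparison populations and the gene lists were chosen with earlier results of these data known. UMIs were summed over cells per library and population, without the gate's genes, and tested with edgeR 4.0.16 (R 4.3.3; filterByExpr, TMM, glmQLFit and glmQLFTest, library as block, Benjamini-Hochberg adjustment over all genes tested, two-sided), leaving out a library with under 20 cells in either population. Each group is 1 pool, so the p-values measure how the difference within a library varied over libraries of different groups. Named genes were the 10 called genes with the largest log2 fold change in each direction that differed the same way in all libraries of the fit and reached 50 CPM in the higher population. Between libraries they were the 10 per direction with the largest smallest ratio to WT among genes past a log2 ratio of 1 in all 3 obese libraries, with at least 50 CPM in WT (lower) or in all 3 (higher, and above the cells with a C1q sum under 5). List members were named as the most abundant ones, and every called one where few were. Exceptions chosen after their values were seen are genes given for a change between libraries, among them H2-DMb2, Il10, Fabp4 and Cxcl9. Intervals are exact binomial or Poisson at 95% and, like the floor of 3 UMIs used for counts of 0, cover counting error only. The members held 128838 UMIs in WT, the least precise library, and 498888, 541060 and 2258649 UMIs in the 3 obese libraries in the order given above. Reference cells were T cells with at least 3 UMIs of the T cell list and stromal cells with at least 100 stromal UMIs per 10,000. DESeq2 1.42.0, other limits, thinning to 1000 UMIs, cells of at least 2000 UMIs and leaving out each library were alternatives. The scripts were tested on simulated data. Values of a few single genes are not reported here.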

Additional observations from a re-analysis of the deposited data

How the results depend on the processing

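No called fold change of a named or listed gene in the 3 population comparisons changed sign in an alternative run that gave it an adjusted p. Listed genes that were not called were not checked for this. Of the refits of called genes 1548 kept and 409 lost their call. DESeq2 called 87 genes against MHC-II low cells (79.3% of them higher, in place of 68.1%), 262 against Lyve1-set high and 540 against Trem2-set high cells. Without the filter on low counts 571 were called against Lyve1-set high cells, and with a C1q sum of at least 20 the count against MHC-II low cells was 418. No paired analysis by replicate number was possible because the labels number no replicates. The library is the block, and without the library block 0, 3 and 0 genes were called, with 135, 530 and 712 at an unadjusted p under 0.05. Leaving out each library in turn gave 97 to 316, 65 to 340 and 510 to 1452 called genes.

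The shares of all cells kept their order, WT lowest and HFD highest, in every alternative run. Of the C1q-gated cells they were 2.59%, 4.00%, 6.79% and 27.0%. With an MHC-II sum of at least 100 they were 0.687%, 1.47% and 7.40% in the 3 obese libraries, and with a C1q sum of at least 20 they were 0.610%, 1.89% and 7.23%. Cells thinned to 1000 UMIs gave 0.570%, 1.91% and 5.46%, and cells of at least 2000 UMIs gave 3.14% in db/db 16w. The intervals of WT and db/db 8w overlapped with an MHC-II sum of at least 100 (0.286% to 0.640% and 0.545% to 0.854%). They also overlapped with a C1q sum of at least 20 (0.232% to 0.560% and 0.476% to 0.768%) and after thinning (0.255% to 0.602% and 0.429% to 0.744%). The same held among cells of at least 2000 UMIs, of the C1q-gated cells, and without cells that carried markers of other immune types.

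Between libraries a pseudocount of 1 CPM in place of 10 gave 3978 higher and 2579 lower genes (db/db 8w), 3928 and 3060 (db/db 16w), 5040 and 1864 (HFD), and 2256 and 1244 (all 3). A pseudocount of 50 CPM gave 227 and 208, 344 and 366, 227 and 154, and 53 and 95. With a C1q sum of at least 20 the log2 ratio to WT turned positive for Ccl22 in HFD (0.45), Fscn1 in db/db 16w (0.31) and HFD (1.0) and Ccr7 in HFD (0.96). Without cells that carried markers of other immune types, an alternative added after the data were seen, it did so for Ccl22 in HFD (0.20), Fscn1 in db/db 16w (0.25) and HFD (0.72) and Ccr7 in HFD (0.20), since the 1 WT cell that held these UMIs was left out. With 28 WT members, many genes had too few UMIs there for a ratio to be precise.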

Other observations

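Genes of a list described for MHC-II high macrophages of the serous cavities (Cd226, Retnla, Itgax, Dpp4, Ccr2, Clec10a, Mgl2, Fcrls, Lgals1) did not move as 1 group in the members. Against MHC-II low cells 3 of 6 tested genes were higher (Mgl2, Retnla, Ccr2) and Lgals1 was lower, with a median log2 fold change of 1.06 beside -0.01 over all genes. Against Trem2-set high cells 4 of 7 were higher, Fcrls among them (1.17), and Itgax and Lgals1 were lower. Against Lyve1-set high cells Itgax was higher (1.56) and Retnla and Clec10a were lower. Clec10a, which encodes the lectin MGL1, stood at 803, 831, 214 and 198 CPM in the members of the 4 libraries, in an order different from that of Mgl2.

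Fcgr3, a receptor for IgG complexes, was at 434, 354, 394 and 404 CPM in the members, and Fcgr2b, the inhibitory IgG receptor, at 281, 121, 180 and 181 CPM. Selenop, a secreted selenium carrier abundant in resident macrophages, stood at 2064, 1896, 1967 and 3175 CPM in members and at 5707, 5929, 6781 and 5198 CPM in Lyve1-set high cells.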
